A study of Mus musculus with 2 samples.

Results

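Cells labeled here as dermal IL17 γδ T cells of mouse ear skin were taken from 2 single-cell RNA libraries by their transcripts. A cell was a member when it held at least 2 unique molecular identifiers (UMIs, 1 per captured RNA molecule) of the CD3 chains *Cd3d*, *Cd3e* and *Cd3g* together, at least 1 of *Cd163l1*, and none of *Cd4*, *Cd8a*, *Cd8b1* or *Foxp3*. Of 23878 kept cells, 612 were members, with 183 among 12213 cells of the control (CTRL) library and 429 among 11665 cells of the allergic contact dermatitis (ACD) library. Both libraries came from ear skin of ICR mice aged 7 to 8 weeks. The ACD mice had been sensitized with 1.0% 2,4-dinitrofluorobenzene (DNFB, a skin-sensitizing hapten) on the dorsal skin, elicited on day 6 with 0.2% DNFB on the ear, and their ears were collected at 60 hr. The control was healthy ear skin, and its handling beyond that, the number of animals in each library and their genotype are not given in the sources used here. With 1 library per group there was no replicate check and no test of ACD against control, and differences between animals or preparations cannot be told apart from the treatment.

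IL17-producing γδ T cells are innate-like lymphocytes that settle in the mouse dermis early in life. They carry the transcription factor *Sox13* and the kinase *Blk*, sense IL23 and IL1β through *Il23r* and *Il1r1*, and release IL17A, IL17F and IL22 without the priming that αβ T cells need. These cytokines act on keratinocytes and fibroblasts and draw neutrophils into the skin. *Cd163l1*, the gene that chose the cells, encodes the scavenger receptor SCART1, found on γδ T cells with an IL17 program.

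The promoters of the 2 IL17 genes are shown because both genes are read in the same cells below. *Il17a* (ENSMUSG00000025929) lies at 1:20730905-20734496 on the plus strand and *Il17f* (ENSMUSG00000041872) at 1:20777146-20790617 on the minus strand of GRCm38. Each window runs from 250 bases before to 50 bases after the transcription start in RefSeq (GRCm38.p6), chr1:20730655-20730954 on the plus strand for *Il17a* and chr1:20784221-20784520 on the minus strand for *Il17f*, 5′ to 3′. Capitals mark AGGTCA, a half-site that many nuclear receptors can bind (TGACCT where it lies on the other strand), and TATAAA.
Il17a: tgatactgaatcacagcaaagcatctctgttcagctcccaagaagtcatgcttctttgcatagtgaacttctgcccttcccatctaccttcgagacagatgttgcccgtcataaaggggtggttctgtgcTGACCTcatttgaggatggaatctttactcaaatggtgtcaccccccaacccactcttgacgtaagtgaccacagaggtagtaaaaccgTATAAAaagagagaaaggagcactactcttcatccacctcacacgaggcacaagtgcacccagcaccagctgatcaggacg
Il17f: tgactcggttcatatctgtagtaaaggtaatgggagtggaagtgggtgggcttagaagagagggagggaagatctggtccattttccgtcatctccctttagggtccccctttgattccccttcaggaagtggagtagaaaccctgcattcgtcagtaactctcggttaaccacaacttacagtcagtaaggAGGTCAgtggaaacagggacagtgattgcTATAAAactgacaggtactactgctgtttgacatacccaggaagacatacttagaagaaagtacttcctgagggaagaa
Both motifs were searched on both strands and do not overlap each other. Of 32851 RefSeq promoters of this length, 16.3% held AGGTCA and 13.6% held TATAAA, so each promoter above shares its letters with many others. The *Il23r* promoter held AGGTCA once on each strand, 1 of 2 *Ccr6* promoters held AGGTCA once and the other neither motif, and the promoters of *Cd163l1* and *Sox13* held neither motif. A match describes the letters and is no evidence of binding.

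The CTRL and ACD libraries held 12895 and 13163 deposited barcodes with 99037698 and 126566870 UMIs. A cell was kept if it had above 200 and below 5000 detected genes, no more than 25000 UMIs, and less than 8% of its UMIs from mitochondrial genes. Members summed to 1118125 UMIs in CTRL and 3110878 in ACD, with medians of 4533 and 6048 UMIs per cell, so ACD values rest on more molecules. The libraries shared 50 barcodes, 2 of which named a CTRL member and a non-member of ACD, and no barcode was a member in both. Doublets were not removed in the values below. A level is the UMI sum of a gene over the members of a library per 1000000 of their UMIs. Parentheses after a value give its exact interval at 95% confidence, by Poisson counts for a level, Clopper-Pearson for a share and a conditional binomial for a log2 ratio, and these intervals hold counting error alone. Each log2 ratio sets ACD over CTRL.

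The threshold on *Cd163l1* (ENSMUSG00000025461, 7:140218267-140231145, plus strand) decided most of the choice. At least 1 *Cd163l1* UMI was found in 203 CTRL and 521 ACD cells, of which 184 and 476 also passed the CD3 limit. From these, 1 CTRL cell was dropped for Cd8 UMIs, and in ACD 17 cells held *Cd4*, 31 held Cd8 and 4 held *Foxp3*. Members with exactly 1 *Cd163l1* UMI numbered 42 in CTRL and 38 in ACD. Just outside the limit were 539 CTRL and 867 ACD cells with CD3 but with no UMI of *Cd163l1*, *Cd4*, Cd8 or *Foxp3*, called other CD4-CD8- CD3 cells here. Going from 0 to 1 to 2 or more *Cd163l1* UMIs, *Blk* stood at 57.1, 115 and 171 per 1000000 in CTRL and at 30.5, 102 and 303 in ACD. Over the same steps *Il23r* stood at 31.6, 86.5 and 68.5 in CTRL and at 12.2, 84.6 and 72.8 in ACD. *Ccr6* did not follow the steps in CTRL, at 102, 94.8 and 86.8, and stood at 47.2, 80.2 and 55.1 in ACD.

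The label was then checked against the other markers given for these cells, which the rule had not used. *Blk* (ENSMUSG00000014453, 14:63372836-63417037, minus strand), a Src-family kinase, was at 159 per 1000000 in CTRL members (137 to 184) and 289 in ACD members (270 to 309). In CD4-gated cells it was at 0 and 0.195 per 1000000, and in CD8-gated cells at 0 and 1.54. Here and below, CTRL values of these gates rest on only 44 CD4-gated and 17 CD8-gated cells. *Il23r* (ENSMUSG00000049093, 6:67422932-67491855, minus strand), the receptor chain for IL23, was at 72.4 and 73.6 in members against 6.49 and 1.75 in CD4-gated cells. *Ccr6* (ENSMUSG00000040899, 17:8236043-8257141, plus strand), the receptor for CCL20, was at 88.5 and 56.9 in members against 29.2 and 8.57 in CD4-gated cells, while the other CD4-CD8- CD3 cells of CTRL held 102. *Il17a* was at 453 and 888 in members against 35.7 and 14.2 in CD4-gated cells. Of these 4 markers, 0 were past 2-fold between the libraries, with a median log2 ratio of 0.42. All 4 were thus found in members of both libraries, and *Ccr6* did not set CTRL members above the other CD4-CD8- cells. The γδ receptor itself could not be read, because *Trdc*, *Trac*, *Tcrg-C1*, *Tcrg-C2* and *Tcrg-V6* are not among the genes of the annotation used for these files and were not analysed here.

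**Figure D1:**
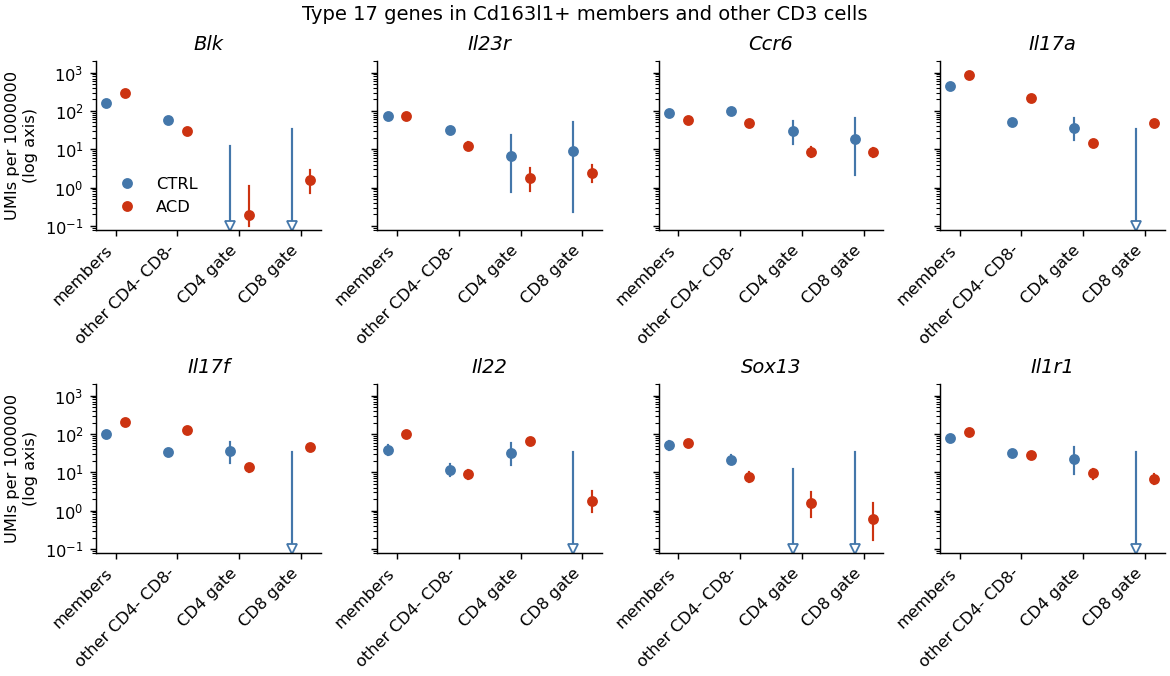
UMIs per 1000000 (log axis) of 8 type 17 genes in members, other CD4-CD8- CD3 cells, CD4-gated and CD8-gated cells of CTRL (blue) and ACD (red), with exact Poisson 95% intervals as bars and an open triangle for 0 UMIs. The genes other than *Ccr6* lie highest in members in both libraries, and *Ccr6* of CTRL is at 88.5 in members and 102 in the other CD4-CD8- cells.

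Members were then set against the pooled CD4-gated, CD8-gated and other CD4-CD8- CD3 cells of their own library. The remaining 22 CTRL and 441 ACD CD3 cells (*Foxp3*, *Cd4* with Cd8, or *Cd163l1* with *Cd4* or Cd8) were left out. In ACD the cells left out held 496 of the 2284 *Il17f* UMIs of kept cells. Few genes stood apart by 4-fold with 10 UMIs per 1000000 added on each side. In CTRL 3 of 7738 genes passed (0.0388%) and in ACD 15 of 11076 (0.135%), and *Il17a* was the 1 gene that passed in both. Ranked by the smaller of the 2 ratios, the leading genes were *Il17a*, *Kcnk1*, *Blk*, *Bcl2a1a*, *Dhx34*, *Il17f*, *Pde5a*, *Il1r1*, *Ckb*, *Sox13*, *Il23r*, *Pdcd1*, *Nav2*, *Slc16a6* and *Il22*. The list holds the 2 IL17 cytokines and IL22, the receptors for IL23 and IL1, the kinase *Blk* and the transcription factor *Sox13*, next to genes such as the potassium channel *Kcnk1* and the brain-type creatine kinase *Ckb*. *Sox13* was at 51.9 and 57.5 per 1000000 in CTRL and ACD members and at 0 and 1.56 in CD4-gated cells. *Il1r1* was at 78.7 and 114 in members, at 31.3 and 28.8 in other CD4-CD8- CD3 cells, and at 76.5 and 59.4 in stromal cells, and the part of stromal RNA in it was not tested. Of the 15 leading genes, 2 were at least 2-fold higher in ACD than in CTRL members (*Il22* and *Bcl2a1a*) and 0 were at least 2-fold lower.

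Members made up 1.5% of kept cells in CTRL (1.29 to 1.73%) and 3.68% in ACD (3.34 to 4.04%), so the log2 ratio was 1.30 (1.04 to 1.55). Among CD3 cells the order was the opposite, with 22.7% in CTRL (19.9 to 25.8%, 183 of 805) and 13.7% in ACD (12.5 to 15%, 429 of 3130), and the log2 ratio was -0.73 (-0.98 to -0.47). CD3 cells themselves went from 6.59% to 26.8% of kept cells, CD4-gated cells from 5.47% to 21.2% of CD3 cells, and CD8-gated cells from 2.11% to 23.3%. The other CD4-CD8- CD3 cells made up 67.0% and 27.7% of CD3 cells. The members' share thus moved up against all cells and down against T cells. These are shares of dissociated cells, so cell number in the tissue and recovery from it cannot be told apart. When the 129 CTRL and 360 ACD members with 3 or more UMIs of stromal, myeloid, epithelial or vessel genes were left out, the log2 ratio over kept cells was 0.42 (-0.11 to 0.96).

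*Il17a*, the cytokine for which these cells are named, was about 2-fold higher in ACD members, though the size of the difference moved with the choice of cells. It summed to 507 UMIs in CTRL and 2764 in ACD, 453 per 1000000 (415 to 495) against 888 (856 to 922), so that its log2 ratio was 0.97 (0.83 to 1.11). Over single members, 70.5% of CTRL and 44.5% of ACD cells held no *Il17a* UMI, the highest cell held 47 and 189, and the 19 highest CTRL and 43 highest ACD cells held 81.1% and 57.1% of the *Il17a* UMIs. After every cell was thinned to 2000 UMIs, to set the depths equal, *Il17a* was found in 22.6% of 177 CTRL members (16.7 to 29.5%) and in 42.7% of 426 ACD members (38.0 to 47.6%), against 29.5% and 55.5% unthinned. The thinning left out 6 and 3 shallow members. In stromal cells, which should lack the gene, the shares after the same thinning to 2000 UMIs were 0.0424% and 0.0945%. Before thinning, the median depths of stromal cells were 7443 and 9232 UMIs. For *Blk*, *Il23r*, *Ccr6*, *Icos*, *Pdcd1*, *Cxcr6*, *Klrk1* and *Nkg7*, whose shares of members are given below, stromal cells had thinned shares of at most 0.813%. More members thus held *Il17a* in ACD, and the message was spread over more of them.

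Under other choices of cells the *Il17a* log2 ratio was 0.74 with at least 2 *Cd163l1* UMIs, 0.72 when the gate followed thinning, 0.62 without cells marked as doublets by Scrublet, and 0.66 as a mean over cells. Choosing cells by at least 2 UMIs of *Blk*, *Il23r* and *Ccr6* together in place of *Cd163l1* gave 1.53, from 290 to 836 per 1000000. Of the 238 CTRL and 441 ACD cells so chosen, 95 and 312 were members. The rest lay among the other CD4-CD8- CD3 cells, so that comparison group also held cells with UMIs of these markers. Without the members that held 3 or more stromal, myeloid, epithelial or vessel UMIs, 54 and 69 members of lower depth (medians of 3359 and 4314 UMIs) were left, and the direction turned. *Il17a* then stood at 820 per 1000000 in CTRL and 724 in ACD, which gives a log2 ratio of -0.18 (-0.47 to 0.11). The thinned share of members with *Il17a* kept its direction in every setting run.

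**Figure D2:**
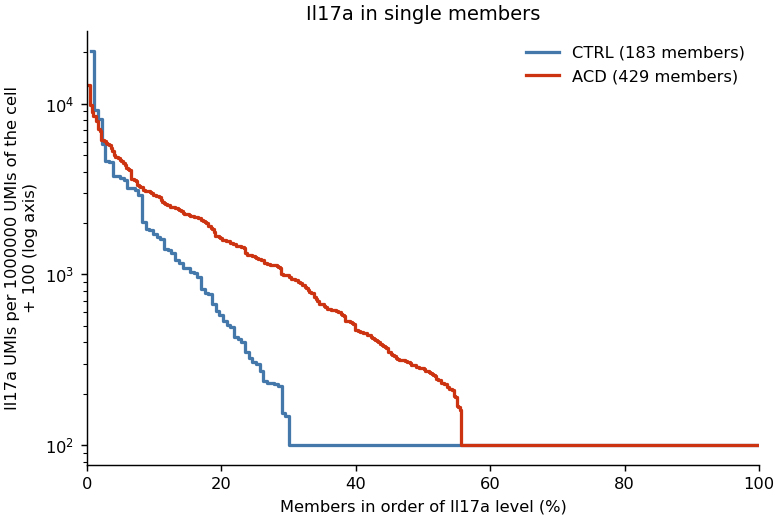
*Il17a* UMIs per 1000000 UMIs of each cell, with 100 added (log axis), for the 183 CTRL members (blue) and 429 ACD members (red), each in falling order along the horizontal axis (percent of members). The lines reach their floor at 29.5% of CTRL and 55.5% of ACD members, where no *Il17a* UMI is left.

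Members did not hold all *Il17a* of the skin, and their part was smaller in ACD. Of 670 *Il17a* UMIs in kept CTRL cells, members held 75.7% (72.2 to 78.9%) and other CD4-CD8- CD3 cells 20.9%. Of 4690 in ACD, members held 58.9% (57.5 to 60.3%), other CD4-CD8- CD3 cells 27% and CD8-gated cells 6.55%. *Il17a* in the other CD4-CD8- CD3 cells went from 50.3 to 217 per 1000000, so the log2 ratio there (2.11) was larger than in members, although its level stayed below theirs. For *Il17f* the members' part went from 49.5% of 220 UMIs to 27.3% of 2284. *Il22* UMIs of ACD lay with members (40.9% of 753) and with CD4-gated cells (44.0%).

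Of 18 listed type 17 cytokines and growth factors, 11 reached 50 UMIs over the members, and 4 of these were at least 2-fold higher in ACD on the size rule (a log2 ratio of 1 or more with 10 UMIs per 1000000 added) while 0 were at least 2-fold lower. Over all 7371 genes with 50 UMIs, 116 were higher (1.57%) and 270 lower (3.66%), and the median log2 ratio with the addition was -0.03, against 0.96 for the cytokines. The count of every list below is to be read beside these shares of all genes. In what follows, a value followed by an interval in parentheses is a log2 ratio without the addition unless given per 1000000, and list medians are on the scale with it. *Il17f*, which pairs with IL17A, was at 97.5 and 200 per 1000000, a log2 ratio of 1.04 (0.74 to 1.35), but 1 ACD cell held 38.5% of its UMIs. Its thinned share of cells was 9.04% in CTRL and 10.1% in ACD. *Il22*, which acts on epithelium, was at 38.5 and 99.0, 1.36 (0.90 to 1.86), with 20.8% of the ACD UMIs in 1 cell. *Il17f* and *Il22* were thus higher in the sum, while their shares of cells differed little (4.52% and 6.34% for *Il22*).

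*Csf2*, the gene for GM-CSF, was at 12.5 and 40.8 per 1000000 in CTRL and ACD members, a log2 ratio of 1.71 (0.91 to 2.62), and its thinned share went from 1.13% to 5.63%. In CD4-gated cells *Csf2* was at 19.5, from 6 UMIs in CTRL, and 143. *Areg*, an EGF-family growth factor, was at 27.7 and 199 in members, 2.85 (2.33 to 3.42), with 22.4% of the ACD UMIs in 1 cell and thinned shares of 4.52% and 9.62%. In the other CD4-CD8- CD3 cells *Areg* went the other way, from 155 to 103. The members' part of all *Areg* UMIs went from 3.98% of 779 to 25% of 2484. *Ltb*, lymphotoxin β, was at 510 and 1002, 0.97 (0.85 to 1.11), found after thinning in 59.9% and 78.2% of members. *Tnf* was at 187 and 161, -0.21 (-0.45 to 0.03), and was not past the size rule.

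Members held little message of the other T cell programs. *Ifng*, the type 1 cytokine, summed to 3 UMIs in CTRL and 56 in ACD, of which 33.9% lay in 1 cell, with a log2 ratio of 2.75 (1.12 to 5.07) between 2.68 and 18.0 per 1000000. CD4-gated cells held 101 and 269 and CD8-gated cells 235 and 475, so members held 0.772% of the 7258 *Ifng* UMIs of ACD. *Il13* summed to 1 and 16 UMIs and *Il10* to 0 and 3. *Il21* and *Ccl20* were found in no member, which with a limit of 3 UMIs allows 2.68 per 1000000 in CTRL and 0.964 in ACD.

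Of 25 listed regulators, 22 reached 50 UMIs, 1 was at least 2-fold higher, 1 at least 2-fold lower, and the median log2 ratio with the addition was 0.14, where 1.57% of all genes were higher and 3.66% lower. *Maf*, which drives the IL17 fate of γδ cells, was at 444 and 512 per 1000000, 0.21 (0.06 to 0.35), *Rora* at 591 and 728, 0.30 (0.18 to 0.43), and *Zbtb16* (PLZF, a factor of innate-like T cells) at 69.8 and 71.7, 0.04 (-0.34 to 0.43). The intervals of *Sox13* (0.15, -0.29 to 0.60), *Bcl11b* (0.01, -0.23 to 0.24) and *Ikzf3* (-0.02, -0.26 to 0.22) held 0, as did that of *Zbtb16*. None of these passed the size rule.

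*Batf*, an AP-1 factor needed for type 17 programs, was the regulator past the rule upward, at 26.8 in CTRL and 78.1 in ACD per 1000000, 1.54 (0.99 to 2.14), found after thinning in 2.82% and 13.1% of members. *Sox4*, a factor of developing γδ cells, was the one downward, at 57.2 and 14.5, -1.98 (-2.57 to -1.41), but 34.4% of its CTRL UMIs lay in 1 cell and stromal cells held 131 and 114. *Blk* had a log2 ratio of 0.86 (0.63 to 1.1) and *Stat3*, the signal carrier of IL23, 0.68 (0.38 to 0.99). *Irf4* stood at 0.73 (0.13 to 1.39) and *Ikzf2* at 0.72 (0.42 to 1.04). In the other CD4-CD8- CD3 cells *Blk* went the opposite way, from 57.1 to 30.5 per 1000000. At equal depth *Blk* was found in 31.1% of CTRL and 47.2% of ACD members.

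Among 25 cytokine receptors with 50 UMIs, 0 were at least 2-fold higher and 1 lower, against 1.57% and 3.66% of all genes. Their median log2 ratio was -0.09. *Il23r* differed by 0.02 (-0.35 to 0.41) and was found after thinning in 15.8% and 15.3% of members. *Il1r1*, the signaling receptor for IL1, stood at 0.54 (0.20 to 0.89), with 14.7% and 20% of members, against 13.7% and 10.1% of stromal cells. *Il1r2*, the decoy receptor for IL1, was the receptor past the rule, at 70.7 and 20.9 per 1000000, -1.76 (-2.25 to -1.27), where 1 CTRL cell held 55.7% of the UMIs. *Il7r*, which carries the survival signal of IL7, was at 300 and 208, -0.53 (-0.72 to -0.33), and at equal depth in 46.3% and 33.3% of members. The shared chains for IL2 and IL15 went the other way, with *Il2rb* at 0.80 (0.33 to 1.30) and *Il2rg* at 0.70 (0.46 to 0.95).

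*Il18r1* was close to level at 0.05 (-0.20 to 0.31), while its partner *Il18rap* stood at 1.19 (0.59 to 1.85), from 26 and 165 UMIs. *Il17re*, a receptor chain for IL17C, was at -0.80 (-1.35 to -0.24), *Tnfrsf25*, the receptor for TL1A, at 0.63 (0.25 to 1.03), and *Tgfbr2* at -0.51 (-0.83 to -0.17). The chains for IFNγ were at -0.01 for *Ifngr1* (-0.25 to 0.23) and -0.63 for *Ifngr2* (-0.95 to -0.29). With the addition of 10 none of these passed the size rule.

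Of 18 receptors for homing and adhesion with 50 UMIs, 1 was at least 2-fold higher, 0 lower, and the median was 0.06, where 1.57% of all genes were higher and 3.66% lower. The gene past the rule was *Cxcr6*, the receptor for CXCL16 on tissue T cells, at 352 in CTRL and 717 in ACD per 1000000, 1.03 (0.87 to 1.18), and after thinning in 46.9% and 71.6% of members. In the other CD4-CD8- CD3 cells *Cxcr6* was at 219 and 207. *Ccr6* was lower, at -0.64 (-1.0 to -0.27), with 18.6% and 10.8% of members, and *Ccr2*, which follows CCL2 into inflamed tissue, was at 0.64 (0.36 to 0.93), with 26.6% and 31.7%. *S1pr4* stood at 1.06 (0.58 to 1.58) without the addition and at 0.89 with it. The residence markers *Cd69* (-0.10, -0.20 to -0.01), *Itgae* (0.01, -0.20 to 0.23) and *Itgb7* (0.06, -0.12 to 0.23) differed little.

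Of 22 measured genes of γδ cell identity, 0 were at least 2-fold higher and 3 lower, against 1.57% and 3.66% of all genes. Their median was -0.09. The 3 lower genes were *Cd9*, at 539 and 229 per 1000000, *Cd81*, at 239 and 93.2, and *Igf1r*, at 111 and 46.6. Both tetraspanins were at higher levels in stromal cells (*Cd9* at 1870 and 1716, *Cd81* at 843 and 841), whose RNA was also lower in ACD members, and their part was not tested. *Ramp1*, a receptor partner for the neuropeptide CGRP, was at 634 and 349 in members, -0.86 (-1.0 to -0.72), and at 94.5 and 94.0 in stromal cells. *Capg* was at 0.56 (0.44 to 0.67), *S100a4* at -0.33 (-0.38 to -0.28) and *S100a6* at 0.01 (-0.03 to 0.05).

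**Figure D3:**
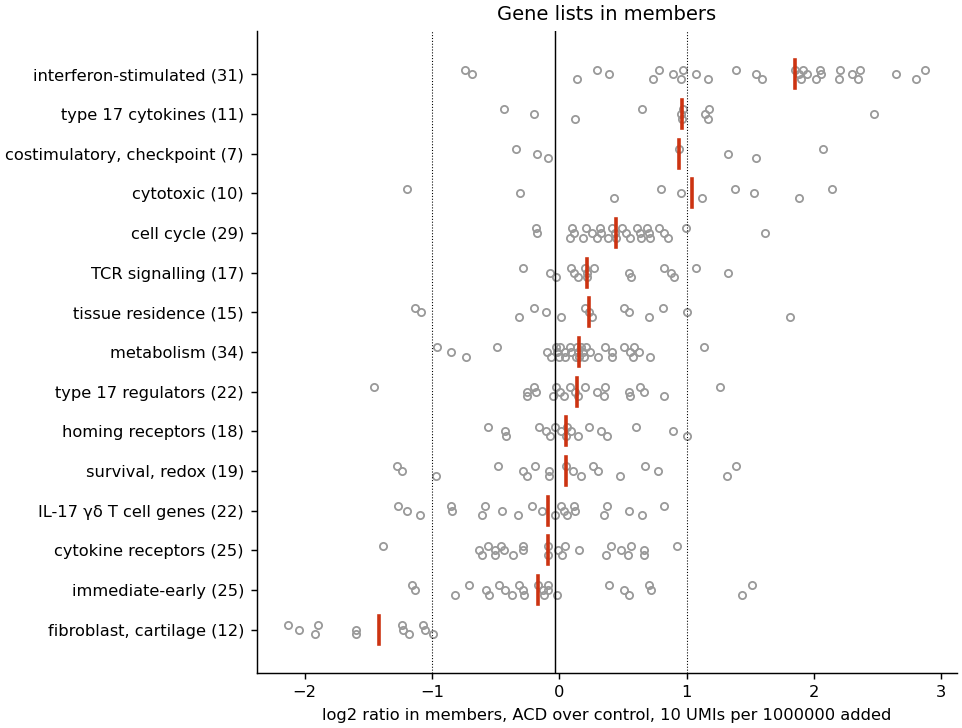
The log2 ratio of ACD over CTRL in members, with 10 UMIs per 1000000 added, for each gene with at least 50 UMIs (gray circles) of 15 gene lists, with the list median as a red bar, the median of all 7371 genes (-0.03) as a black line and the 2-fold limits dotted. Of these lists, interferon-stimulated genes have the highest median (1.85) and fibroblast and cartilage genes the lowest (-1.42).

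Interferon-stimulated genes were higher as a group in ACD members. Of 31 with 50 UMIs, 21 were at least 2-fold higher and 0 lower, with a median of 1.85, and the list summed to 6125 per 1000000 in CTRL (5981 to 6272) and 17474 in ACD (17327 to 17621). The guanylate-binding protein *Gbp2* was at 7.15 and 115 per 1000000, 4.01 (3.02 to 5.23), and the immunity-related GTPases *Igtp* and *Iigp1* stood at 3.01 (2.29 to 3.83) and 5.15 (3.28 to 8.21), *Iigp1* from 2 UMIs in CTRL. *Gbp3* had 0 UMIs in CTRL and 81 in ACD, at least 9.70-fold higher with 3 UMIs set for CTRL. *Zbp1*, a sensor of nucleic acids, stood at 4.04 (2.66 to 5.93) from 4 CTRL UMIs. These GTPases act against pathogens inside the cell. At equal depth *Gbp2* had a UMI in 2.26% and 15.7% of members, against 2.22% and 11.6% of stromal cells, and *Igtp* in 2.26% and 17.8%, against 0.943% and 10.3%.

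Some class I antigen presentation genes of the same list were also read, of which *H2-D1*, *B2m* and *Tap1* were named after their values were seen. *H2-K1* was at 457 and 2141 per 1000000, 2.23 (2.10 to 2.36), and was found after thinning in 50.3% and 94.1% of members. *H2-Q7*, a non-classical class I gene, was at 22.4 and 215, 3.27 (2.69 to 3.90), *B2m* at 843 and 3275, 1.96 (1.86 to 2.05), the transporter *Tap1* at 2.18 (1.72 to 2.69), and *H2-D1* at 2617 and 6869, 1.39 (1.34 to 1.45). Class I genes are alike in sequence, so how reads were divided among them is uncertain. *Ly6a* (Sca-1), an interferon-inducible surface protein, was at 191 and 912, 2.25 (2.05 to 2.46), in 11.9% and 49.3% of members at equal depth. Not all of the list went up, with the feedback gene *Socs3* at -0.72 (-0.94 to -0.51) and *Ifitm2* at -0.77 (-0.97 to -0.58).

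The same genes were read in other cells of the 2 libraries for comparison. In CD4-gated cells *H2-K1* was at 1554 and 2173 per 1000000, so the CTRL level of members lay below theirs and the ACD levels were close. In the other CD4-CD8- CD3 cells it was at 462 and 1906, much as in members. Stromal cells had log2 ratios of 3.37 for *Gbp2*, 3.02 for *H2-K1* and 6.87 for *Gbp4*. CD4-gated cells, with only 44 in CTRL, had 0.53 for *Gbp2* and 0.48 for *H2-K1* (0.35 to 0.62). *H2-K1* was thus higher in ACD in stromal, other CD4-CD8- and CD4-gated cells too, and *Gbp2* and *Gbp4* in stromal cells.

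**Figure D4:**
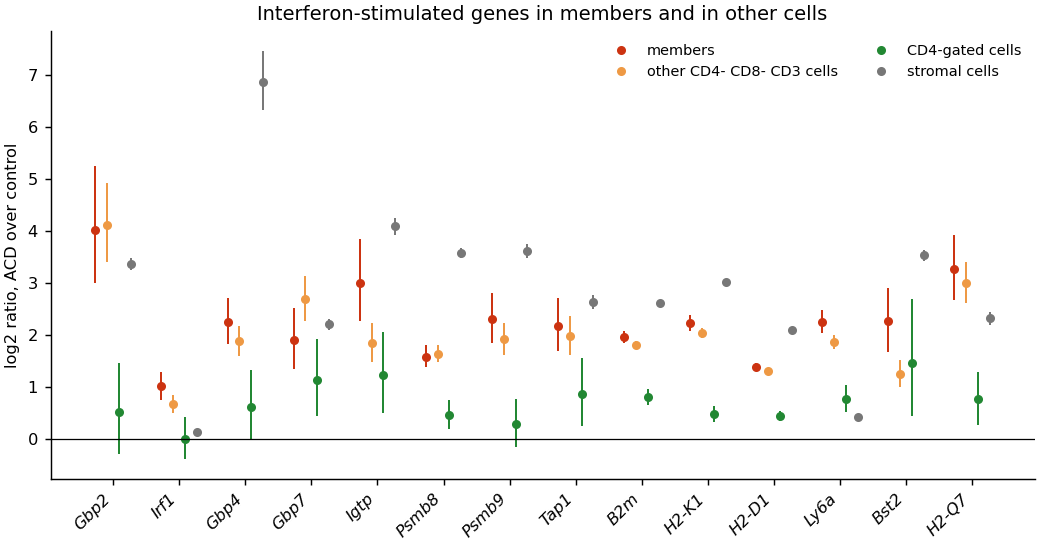
The log2 ratio of ACD over CTRL for 14 interferon-stimulated genes in members (red), other CD4-CD8- CD3 cells (orange), CD4-gated cells (green) and stromal cells (gray), with exact 95% intervals as bars. All 14 points of members lie above 0, from 1.02 for *Irf1* to 4.01 for *Gbp2*, and for each gene the CD4-gated point lies below that of members. The 14 were chosen from the 31 measured genes of the list, some after their values were seen. *Socs3* and *Ifitm2*, which were lower in ACD members, are not shown, so the shared sign of the 14 reflects the choice of genes.

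Genes of costimulation and checkpoint control were higher in 3 of 7 cases, lower in 0, with a median of 0.94. *Icos*, a costimulatory receptor, was at 85.0 and 228 per 1000000, 1.43 (1.11 to 1.75), and at equal depth in 15.3% and 36.2% of members. *Cd274* (PD-L1), the ligand of PD-1, was at 8.05 and 65.9, 3.03 (2.08 to 4.18), in 1.69% and 12.7% of members, and *Tnfrsf9* (4-1BB) was at 4.47 and 32.1, 2.85 (1.58 to 4.50). *Pdcd1* (PD-1) stood at 68.0 and 140, 1.04 (0.68 to 1.41), in 10.7% and 22.8% of members, and at 0.94 with the addition. In CD4-gated cells, only 44 of them in CTRL, *Pdcd1* was at 19.5 and 52.8. Of 17 T cell receptor signaling genes, 2 were at least 2-fold higher, *Icos* again and the kinase *Txk* (1.38, 0.77 to 2.05), 0 were lower, and the median was 0.22.

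Of 10 cytotoxic genes, 5 were at least 2-fold higher and 1 lower, with a median of 1.04, and the list summed to 1449 and 2668 per 1000000. That sum includes list genes not named here, and in stromal cells the same list summed to 419 and 431, so it is no measure of cytotoxic cells alone. *Nkg7*, a granule protein, was at 37.6 and 127 per 1000000, 1.76 (1.30 to 2.26), with 21.4% of the CTRL UMIs in 1 cell, where CD8-gated cells held 1191 and 1421. *Klrk1* (NKG2D) was at 77.8 and 218, 1.49 (1.16 to 1.83), in 15.8% and 33.8% of members at equal depth, and *Klrd1* (CD94) at 2.02 (0.91 to 3.38). *Gzma* had 0 UMIs in CTRL and 106 in ACD, at least 12.7-fold higher with 3 UMIs set for CTRL, and 1 cell held 31.1% of those UMIs. *Gzmb* had 1 and 94, a log2 ratio of 5.08 (2.57 to 10.4), with 22.3% in 1 ACD cell. *Gzmc* was the gene downward, and all 62 of its CTRL UMIs lay in 1 cell. Chosen by *Blk*, *Il23r* and *Ccr6* instead, cells had a log2 ratio of -0.092 for *Nkg7* with 10 UMIs per 1000000 added, against 1.53 in members.

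Cell cycle genes were found in members of both libraries. *Mki67* or *Top2a*, marks of the S, G2 and M phases, was found at equal depth in 15.8% of CTRL and 23.7% of ACD members, and unthinned in 20.8% and 42.7%. Of 29 cell cycle genes, 1 (*Hist1h1b*, a linker histone, 1.98, 1.40 to 2.62) was at least 2-fold higher and 0 were lower, and the median was 0.45. Of all genes, 1.57% were higher and 3.66% lower. *Mki67* was at 92.1 and 146 per 1000000, 0.66 (0.35 to 0.99), and *Top2a* at 124 and 199, 0.68 (0.41 to 0.95). Within each library, members with *Mki67* or *Top2a* had a lower *Fos* level than those without, 986 against 1538 per 1000000 in CTRL and 530 against 1313 in ACD. Their *Klf2* level was also lower, 277 against 671 and 119 against 377. Their *Il17a* was 356 against 494 in CTRL and 811 against 966 in ACD, at median depths of 7564.5 against 4019 and 7515 against 5380 UMIs.

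Immediate-early and stress genes, which respond to activation and also to tissue digestion, were mixed. Of 25, 2 were at least 2-fold higher and 2 lower, against 1.57% and 3.66% of all genes. Their median was -0.17. The heat-shock genes *Hspa1a* and *Hspa1b*, near-identical copies, were higher, *Hspa1a* at 283 and 825 per 1000000, 1.55 (1.38 to 1.72). *Klf2*, which keeps T cells circulating, was at 555 and 248, -1.17 (-1.32 to -1.01), with 27.2% of the CTRL UMIs in 1 cell and thinned shares of 22.6% and 18.5%, and *Klf4* was at -1.2 (-1.36 to -1.03). In stromal cells *Klf2* was at 1375 and 1610 and *Klf4* at 1252 and 1034, and the thinned share of stromal cells with *Klf2* was 67.4% and 69.3%. *Fos* was at 1376 and 920, -0.58 (-0.67 to -0.49).

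Among 19 survival and redox genes, 2 were at least 2-fold higher and 2 lower, against 1.57% and 3.66% of all genes. Their median was 0.05. *Bcl2*, the survival factor downstream of IL7, was at 132 and 50.5 per 1000000, -1.39 (-1.72 to -1.06), in 18.1% and 9.62% of members at equal depth. In CD4-gated cells *Bcl2* was at 48.7 and 70.5, where the CTRL value rests on 44 cells. Stromal cells held *Bcl2* in 11.6% and 13.3% at equal depth, so the ACD share of members lay below theirs. Its relatives were higher, with *Bcl2a1b* at 344 and 872, 1.34 (1.19 to 1.5), *Bcl2a1d* at 1.44 (1.21 to 1.68) and *Bcl2a1a* at 2.02 (1.59 to 2.48), 3 near-identical copies whose reads may be divided unevenly. *Mt2*, a metallothionein, was at -1.33 (-1.53 to -1.13). Of 34 metabolic genes, 1 was at least 2-fold higher, *Plin2*, a coat protein of lipid droplets (1.55, 0.84 to 2.35), 0 were lower, and the median was 0.15.

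Of 15 tissue residence genes, 2 were at least 2-fold higher, *Cxcr6* and *Satb1*, and 2 lower, *Klf2* and *Tcf7*, with a median of 0.24. *Satb1*, a chromatin organizer, was at 7.15 and 50.1 per 1000000, 2.81 (1.8 to 4.05), with a UMI in 3.28% of CTRL and 21.2% of ACD members unthinned. At equal depth a *Satb1* UMI was seen in 0 of 177 CTRL members (0 to 2.06%, and in 2 of 183 when thinned to 1000 UMIs) and in 6.57% of ACD members (4.41 to 9.36%). *Tcf7*, the TCF-1 factor of less differentiated T cells, was at 106 and 44.4, -1.25 (-1.62 to -0.88), in 21.5% and 9.86% of members. In CD4-gated cells, only 44 of them in CTRL, *Tcf7* was at 51.9 and 62.2 and *Satb1* at 149 and 219.

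**Figure D5:**
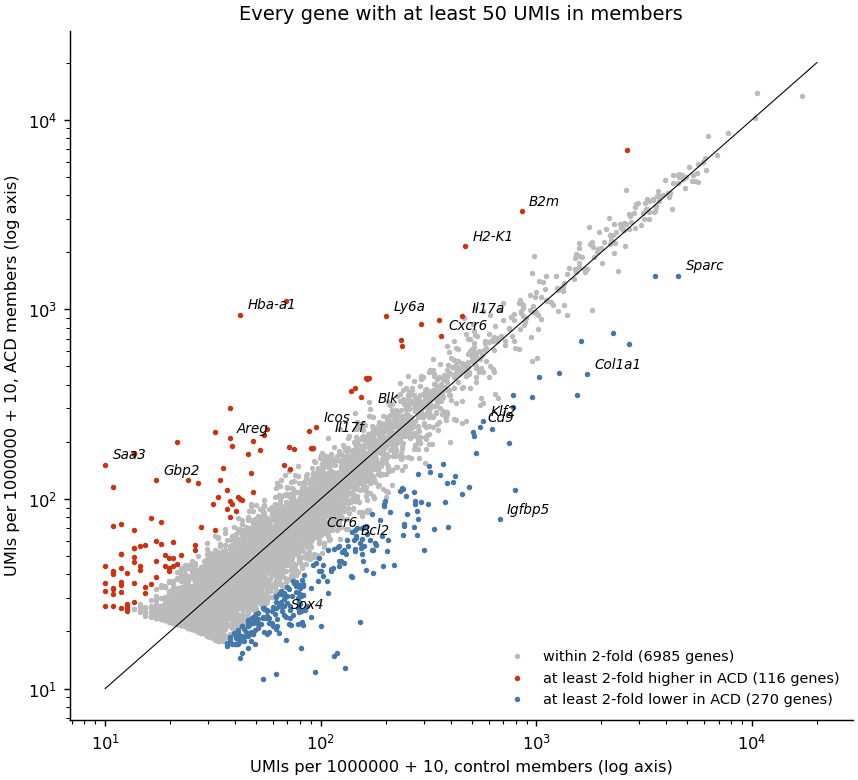
Level in ACD members (vertical, log axis) against CTRL members (horizontal, log axis), both as UMIs per 1000000 with 10 added, for 7371 genes with at least 50 UMIs. Red points are the 116 genes at least 2-fold higher in ACD, blue the 270 at least 2-fold lower, gray the rest, and the line marks equal levels.

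The genes with the highest ratios included those of red blood cells and myeloid cells. The 12 highest were *Hba-a1*, *Hbb-bs*, *Saa3*, *Cxcl10*, *Ccl4*, *Ccl3*, *AW112010*, *Chil1*, *Gbp2*, *H2-Q7*, *Ccl5* and *Iigp1*. Single cells carried several of them. Of the ACD UMIs, 1 cell held 94.8% for *Saa3*, 88.0% for *Chil1*, 64.6% for *Ccl4*, 52.0% for *Ccl3* and 41.8% for *Ccl5*. The chemokine *Cxcl10* was more even, with 4 UMIs in CTRL and 514 in ACD and 16.5% in its top cell. *AW112010*, an interferon-responsive transcript, went from 13 to 588 UMIs with 3.74% in its top cell. Hemoglobin and B cell genes together were at 103 and 2072 per 1000000, all 3 genes with 50 UMIs were higher with a median of 4.0, and 1 ACD cell held 50.1% of *Hbb-bs*, while the thinned share with *Hbb-bs* was 11.9% and 11.5%. In the other CD4-CD8- CD3 cells *Hbb-bs* went the opposite way, from 1010.2 to 63.6. Without the top member of each gene, 104 of the 116 genes stayed past 2-fold.

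The genes with the lowest ratios were mostly those of stroma. The 12 lowest were *Sfrp2*, *Igfbp5*, *Myh11*, *Dlk1*, *Rgs5*, *1520401A03Rik*, *Wfdc2*, *Angptl7*, *Sparcl1*, *Tyrp1*, *Prss23* and *Igfbp6*. Of the 270 lower genes, 244 (90.4%) were at a higher level in stromal cells of CTRL than in CTRL members, against 36 of the 116 higher genes (31.0%) and 2706 of all 7371 (36.7%). Of 12 fibroblast and cartilage markers, 11 were at least 2-fold lower, with a median of -1.42, and the list summed to 16853 per 1000000 in CTRL members and 5542 in ACD members. At least 1 UMI of the list was found in 94.0% and 93.7% of members, and *Matn1* was at 0 in both. Stromal cells made up 9496 of the CTRL and 5325 of the ACD cells, and the list summed to 67688 and 49183 in them. Without cells marked as doublets by Scrublet (14.8% of CTRL and 5.36% of ACD members), 137 of 6705 genes were at least 2-fold lower. In that setting the log2 ratios of *Col1a1* and *Col3a1* turned to 0.60 and 0.77. With genes higher in stromal cells left out, 26 of 4665 genes were at least 2-fold lower, and the part of stromal RNA in single results was not tested.

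Markers of other immune cells were read in the same way. Of 16 myeloid genes, 3 reached 50 UMIs and 1 (*H2-Aa*, with 57.5% of its CTRL UMIs in 1 cell) was lower, with a median of -0.54, the list summed to 713 and 471 per 1000000, and *C1qa*, *C1qb* and *C1qc* were at 0 in both libraries. Of 8 NK and ILC1 genes, 2 reached 50 UMIs and 0 were past 2-fold, with a median of 0.84, 6 were at 0 in CTRL, and the list summed to 27.7 and 82.9. Of 8 genes of dendritic epidermal T cells with 50 UMIs, 3 were higher, with *Avil* at 2.68 and 16.1 and *Cd7* at 57.2 and 141, and a median of 0.87. Of 3 ILC2 genes with 50 UMIs, *Areg* and *Calca* were higher, with a list median of 2.13, and *Calca*, a neuropeptide gene, had 2 and 129 UMIs, 4.53 (2.65 to 7.60). Of 8 epithelial and vessel genes, 4 were higher and 2 lower, with a median of 1.03, while the sum of the list had the opposite sign, at 331 and 216. At least 1 UMI of the myeloid list was found in 19.1% of CTRL and 61.8% of ACD members, and of the epithelial and vessel list in 26.8% and 41.7%. The part of such cells and their RNA in the results was not tested.

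Members were not uniform within a library. Those with an *Il17a* UMI numbered 54 in CTRL and 238 in ACD, at median depths of 4825.5 and 6313 UMIs against 4425 and 5824 in those without, and no test was made within a library. They held more *Il17f* than those without, 240 against 34.7 per 1000000 in CTRL and 334 against 23.9 in ACD, more *Pdcd1*, 147 against 33.5 and 162 against 110, and more *Cxcr6*, 472 against 300 and 841 against 554. They held less *Nkg7*, 11.7 against 48.9 and 75.1 against 196, and less *Il7r*, 220 against 335 and 173 against 254. The interferon-stimulated gene *Gbp4* was at 29.3 (14.1 to 53.9) against 54.0 (39.0 to 73.1) in CTRL, where the counting intervals overlapped, and at 168 against 296 in ACD. *Ly6a* was 255 against 163 in CTRL and 678 against 1222 in ACD.

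A small group of members also held *5830411N06Rik*, which encodes SCART2, a relative of SCART1 on another set of γδ T cells, in 21 CTRL and 34 ACD cells. Against the other members they held less *Il17a*, 238 against 483 per 1000000 in CTRL and 379 against 939 in ACD, and less *Pdcd1*, 7.45 against 76.2, from 1 UMI in the small CTRL group, and 31.9 against 150. They held more *Ccr6*, 119 against 84.4 and 124 against 50.2. In ACD their *Ly6a* was 1460 against 858, and their *Ramp1* 641 against 320, while in CTRL *Ly6a* was 22.3 against 214, from 3 UMIs, and *Ramp1* 566 against 643. Across all members *5830411N06Rik* was at 23.3 and 18.6, against 68.3 and 32.6 in the other CD4-CD8- CD3 cells, so most of its UMIs lay outside the members.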

How the data were processed

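Ear skin had been digested with collagenase D and DNase and run on the Chromium 3′ kit (version 2 chemistry, per the labels). The authors mapped the reads to mm10 with Cell Ranger (3.1.0 in the submitters' processing notes) and deposited, per library, the raw UMI counts of 27998 genes in each barcode, with no normalization, and these deposited counts were the only measure used. The study's methods print the limit of 25000 UMIs as a lower bound, and it was read as an upper one. Its cluster labels were not used.

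Everything else was computed here in Python 3.11.15 (scanpy 1.11.5, pandas 2.3.3, scipy 1.17.1, numpy 2.4.6, matplotlib 3.10.9). CD4-gated and CD8-gated cells passed the CD3 limit and held UMIs of that coreceptor alone, without *Cd163l1* or *Foxp3*. Stromal cells held no *Ptprc* or CD3 UMIs and at least 5 of *Col1a1*, *Col1a2*, *Col2a1*, *Acan* and *Comp*. A gene was called when it had 50 UMIs over the members and differed by 2-fold with 10 UMIs per 1000000 added, and the genes of the cell rule were left out. With no CTRL UMIs, 3 were set. Members, lists and splits were chosen with earlier results of these data known.

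Named were the markers, the called genes of each list (up to 8), all measured genes of the cytokine, regulator, receptor, homing and identity lists, the 12 genes at each end and the 15 leading genes. Other named genes (such as *B2m*, *Tap1*, *H2-D1*, *Mki67*, *Top2a*, *Fos*, *Socs3*, *Ifitm2*, *Pdcd1* and *5830411N06Rik* as splits or shares) were picked after their values were seen. Some genes of the lists are counted in them but not reported here by name. Positions come from GENCODE M21 (27645 of 27998 identifiers found). The calculations were tested on simulated counts. Barcodes marked by Scrublet, 571 (4.68%) in CTRL and 384 (3.29%) in ACD, were left out in 1 alternative. It dropped 27 CTRL members (14.8%) and 23 ACD members (5.36%), so members were marked more often in CTRL. Alternatives changed the cell filter, the gate, thinning, doublets (Scrublet), scaling, the addition and the count limit.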

Additional observations from a re-analysis of the deposited data

How the results depend on the processing

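No paired analysis was possible because each group is 1 library and no test was made. Of the alternative values of the 6 main results, 55 stayed close to the value reported, 16 moved and 1 turned direction. The log2 ratio of the share of kept cells was 0.96 with *Blk*, *Il23r* and *Ccr6* in place of *Cd163l1* and 0.42 without members holding other-lineage UMIs, and that of the share of CD3 cells was -1.07 and -1.61. For the *Il17a* level the values were 0.74 (at least 2 *Cd163l1* UMIs), 0.72 (gate after thinning), 1.53 (*Blk*, *Il23r* and *Ccr6*), 0.62 (Scrublet calls left out), 0.66 (mean over cells) and -0.18 (without members holding other-lineage UMIs). Genes at least 2-fold higher numbered 38 of 1521 without those members and 223 of 7371 with 1 UMI per 1000000 added. Genes at least 2-fold lower numbered 270 of 7371 as reported. They numbered 78 of 5884 (gate after thinning), 137 of 6705 (Scrublet), 17 of 1521 (other-lineage), 475 of 7371 (1 UMI added) and 26 of 4665 (genes higher in stromal cells left out). The number of genes with 50 UMIs thus also differed between settings. The epithelial and vessel median was -0.21 with the *Blk*, *Il23r* and *Ccr6* gate and -0.35 without Scrublet calls. Signs of single genes turned for *Col2a1* at 0.058 (at least 2 *Cd163l1* UMIs), for *Il1r2* at 0.049, *Gzmc* at 1.86, *H2-Aa* at 2.38 and *Angptl7* at 0.0075 (gate after thinning), for *Nkg7* at -0.092, *H2-Aa* at 0.095 and *Krt15* at -0.54 (*Blk*, *Il23r* and *Ccr6*), for *Col1a1* at 0.60 and *Col3a1* at 0.77 (Scrublet), and without the top member of each gene for *Gzmc* at 0.93, *Krt15* at -0.063 and *Tyrp1* at 0.17. Of 97 named genes past 2-fold, 72 of the 91 that could be read stayed past it with the *Blk*, *Il23r* and *Ccr6* gate, 75 of 92 without Scrublet calls and 18 of 25 without members holding other-lineage UMIs, and genes under 50 UMIs in a setting got no value there. Leaving out top members or stromal genes was chosen after seeing the data. The cause of each move was not tested, although fewer members were left under at least 2 *Cd163l1* UMIs, thinning before the gate, Scrublet and the other-lineage setting (54 and 69 in the last) and more with *Blk*, *Il23r* and *Ccr6* (238 and 441). Counts of 1 library limit every interval to counting error.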
